A study of Homo sapiens with 6 samples.

Results

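The nuclear lamina and the HMG chromatin proteins are represented here by 10 genes, LMNA, LMNB1, LMNB2, LBR, TMPO, EMD, HMGB1, HMGB2, HMGB3 and HMGN2. They were read in U373 cells, a human glioblastoma line, on 6 Affymetrix Human Genome U95 Av2 arrays. The genes were chosen by symbol with the MAS5 signals of all 6 arrays in view, so every value below is a description, and the calls of a fit are no independent evidence about these genes. The rule took each probe set annotated to exactly 1 of these symbols. It gave 12 probe sets for the 10 genes, out of 12558 probe sets and 8226 named genes on the array. LMNA and TMPO were each read by 2 probe sets and the other genes by 1.

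The lamins are intermediate filament proteins that line the inside of the nuclear membrane. LMNA encodes the A-type lamins, and LMNB1 and LMNB2 encode the B-type lamins. LBR encodes the lamin B receptor, a membrane protein that also carries sterol reductase activity, while TMPO and EMD encode the LEM-domain proteins LAP2 and emerin. HMGB1, HMGB2 and HMGB3 encode proteins that bend DNA through HMG boxes, and HMGN2 encodes a small protein that binds nucleosomes. In many cell types LMNB1 and HMGB2 transcripts are known to be higher in dividing than in resting cells, and loss of LMNB1 is a known mark of senescent cells.

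Each of the 6 conditions was measured on 1 array. The syk-transfected cells treated with ethanol and 10 µM PonA were sampled at day 1 and at day 2. PonA (ponasterone A) is the steroid inducer of the ecdysone-inducible expression system that the series describes, and ethanol is its solvent. The syk-transfected cells without PonA were ethanol-treated at day 1, untreated at day 1 and untreated at day 2. Untransfected, untreated U373 cells were sampled at day 1. No untransfected cells received PonA, no ethanol array stands at day 2, and nothing in the labels says whether the transfected cells were 1 clone or a pool or whether the cultures were separate. An action of PonA itself and one of induced syk therefore cannot be told apart. With 1 array a condition, differences between 2 arrays have no replicate check. In such bulk samples fewer cells of a type and less RNA per cell cannot be told apart either.

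The values are MAS5 signals, which the authors had scaled so that each array has a trimmed mean of 150.07 to 150.08. A floor was set at the 40th percentile of each array, 22.7 to 26.5 units, and lower signals were raised to it. Of the 3 probe sets of the transfected gene, SYK, a tyrosine kinase, 1 read 39.1 and 72.5 units on the PonA arrays of days 1 and 2 and was under the floor on the other 4. Another read 56.3 and 35.2 units there, against 64.1 in ethanol, 73.1 in untreated transfected cells at day 1 and a value under the floor in those at day 2, so the groups overlapped, and the last was under the floor on all 6. The SYK probe sets thus differ on whether PonA arrays stood higher, and which of them the construct matches was not determined. Geometric mean signals of the spike-in controls were 501 and 352 with PonA at days 1 and 2, 271 with ethanol, 474 and 405 in untreated transfected cells at days 1 and 2, and 157 in untransfected cells. Of 9 glioma and astroglia markers on the array 5 were above the floor on all 6 arrays, VIM, CD44, SOX9, FABP7 and GFAP, and AQP4 was under it on all 6. GFAP gave 193 and 229 units on the PonA arrays and 103 to 221 on the other transfected arrays, against 1533 in untransfected cells. SLC1A3, a glial glutamate transporter, had a log2 PonA effect of 2.88 ± 0.26 (SE, adjusted p = 0.00410 in the limma fit described below). Of 15 markers of neurons, oligodendrocytes, blood, endothelium and epithelium, 7 lay under the floor on all 6 arrays and 4 above it on all 6, MAP2, MOG, MAG and CD3E, with MAG highest of these at 132 to 243 units. NEFL, a neurofilament gene, gave 10.1 to 26.5 units in transfected and 458 in untransfected cells. With PonA 0 of the 7 tested were called. At day 2 the 3' to 5' ratio of beta-actin, a sign of RNA length, was 1.20 with PonA and 1.21 untreated, and at day 1 it was 0.960 to 0.987. The same ratio of GAPDH was higher on the PonA arrays, at 1.01 and 1.04 at days 1 and 2, than on the other 4, at 0.939 to 0.964. It thus moved with the PonA comparison, and its part in the results below was not tested.

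With PonA, transcripts of both B-type lamins, of the lamin B receptor and of 2 HMG box proteins fell. Those of A-type lamin, emerin, LAP2, HMGB1 and HMGN2 were not called. The LAP2 transcript was under the floor on both PonA arrays, so the size of its change was not determined. Among the members LMNB1 had the largest effect, 6.66-fold lower, followed among those above the floor on every array by HMGB2 at 3.09-fold, LBR at 2.29-fold and LMNB2 at 2.05-fold. HMGB3 was under the floor on the PonA array of day 1, so the size of its fitted effect, -1.32 on the log2 scale, depends on the floor and has no set place among these. The PonA effect was estimated over the 5 transfected arrays with an additive limma fit with terms for PonA and day. P-values were adjusted over all 7934 probe sets tested. The fit has no term for ethanol, which both PonA arrays received and the untreated arrays did not. PonA and solvent are therefore not fully separated in it. Against the ethanol array alone, at day 1, LMNB1 was 4.17-fold lower, HMGB2 2.93-fold, LMNB2 2.15-fold and LBR 2.08-fold. Of the 11 member probe sets tested 5 were called lower at an adjusted p under 0.05 and 0 higher, where 2.37% of all tested probe sets were called lower. All 11 effects were negative, with a median of -0.55 on the log2 scale, against 0.01 over all tested probe sets, of which 49.2% were negative. The number called was 2 without the PonA array of day 1 (LMNB1 and HMGB2), 3 without the PonA array or without the untreated array of day 2 (LMNB1, HMGB2 and HMGB3 each time), and 1 with a floor at the 20th percentile (HMGB2). The fit leaves 2 residual degrees of freedom, and no condition was repeated. They hold the difference of ethanol from untreated cells at day 1 and any difference of the PonA effect between the days. The p-values of the fit set the PonA effect against these differences and not against a spread of replicates.

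**Figure D1:**
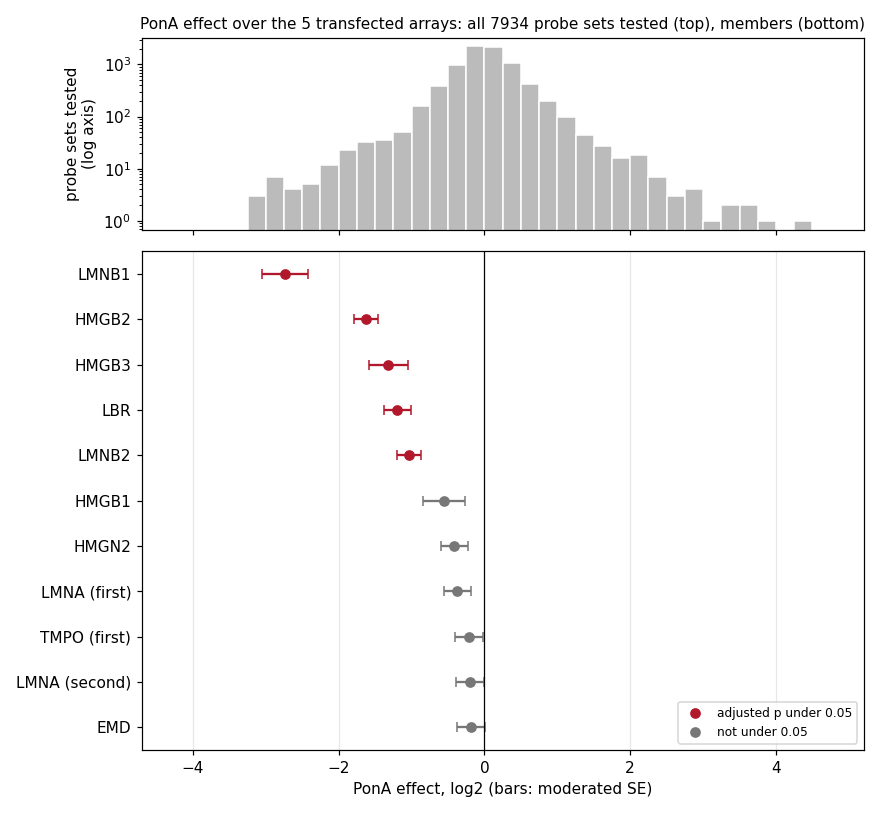
PonA effect on the log2 scale. The upper panel counts all 7934 tested probe sets on a log axis, and the lower panel gives the 11 tested member probe sets with their moderated SE, in red where the adjusted p is under 0.05. LMNB1 lies at -2.74, the other 4 called members between -1.63 and -1.04, and the remaining 6 between -0.55 and -0.18.

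Stretches upstream of the genes are shown first for the called members, because these transcripts were lower together. They come from the RefSeq promoter table of build GRCh38.p14, which holds a window for 9 of the 10 genes, with HMGB2 not matched. Each runs 5′ to 3′ from 250 bases before the annotated start to 30 bases after it, and capitals mark matches of the words searched. The LMNB1 window, the second of its 2 starts, is chr5:126776886-126777165 (plus strand), that of LMNB2 is chr19:2456930-2457209 (minus strand), that of LBR is chr1:225428792-225429071 (minus strand), and that of HMGB3, the first of its 2 starts, is chrX:150983085-150983364 (plus strand).
LMNB1: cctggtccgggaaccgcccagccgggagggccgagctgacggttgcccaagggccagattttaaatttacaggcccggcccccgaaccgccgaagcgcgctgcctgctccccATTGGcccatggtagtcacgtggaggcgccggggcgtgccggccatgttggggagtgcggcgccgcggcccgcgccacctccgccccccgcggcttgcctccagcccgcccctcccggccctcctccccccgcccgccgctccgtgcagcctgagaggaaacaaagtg
LMNB2: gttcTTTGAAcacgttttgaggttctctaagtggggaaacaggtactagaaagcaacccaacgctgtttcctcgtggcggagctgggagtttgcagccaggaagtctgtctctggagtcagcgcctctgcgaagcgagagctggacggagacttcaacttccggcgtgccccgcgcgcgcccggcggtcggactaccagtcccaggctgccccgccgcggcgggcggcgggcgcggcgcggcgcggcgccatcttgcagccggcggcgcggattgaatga
LBR: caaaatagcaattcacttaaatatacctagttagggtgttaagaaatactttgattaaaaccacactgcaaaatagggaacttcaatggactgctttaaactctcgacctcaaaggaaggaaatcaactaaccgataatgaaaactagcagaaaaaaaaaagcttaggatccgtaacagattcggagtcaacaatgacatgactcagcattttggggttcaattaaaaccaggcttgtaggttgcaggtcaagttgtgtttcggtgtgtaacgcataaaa
HMGB3: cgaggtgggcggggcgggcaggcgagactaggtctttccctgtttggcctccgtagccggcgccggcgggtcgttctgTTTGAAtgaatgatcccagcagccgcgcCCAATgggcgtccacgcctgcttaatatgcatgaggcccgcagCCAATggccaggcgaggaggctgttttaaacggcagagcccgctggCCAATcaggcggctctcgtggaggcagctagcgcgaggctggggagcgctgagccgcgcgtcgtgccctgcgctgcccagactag

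The words searched, on both strands, were CCAAT, known as the binding word of NF-Y, TTTGAA or TTCGAA, the CHR word of many genes of the late cell cycle, and 4 spellings of the E2F word, TTTCCCGC, TTTCGCGC, TTTGCCGC and TTTGGCGC. The LMNB1 window holds CCAAT on the reverse strand, read as ATTGG in capitals, starting 138 bases before the start. The HMGB3 window holds TTTGAA 172 bases before the start and CCAAT at 144, 101 and 55 bases before it. The LMNB2 window holds TTTGAA 246 bases before the start, and the LBR window holds none of the words. The other start of LMNB1 and the other start of HMGB3, whose windows are not shown, have none of them either. For both genes the window shown is thus the one with matches. Over all 16 member windows, which overlap for TMPO, 9 hold CCAAT, against 33.6% of 35116 windows in the table. CHR words were found in 3 member windows, against 15.6% of all windows, and E2F words in 1, a window of LMNA, against 3.14%. These matches are descriptions of letters and say nothing of a factor's binding. At least 1 window of each of LMNA, EMD, HMGB1, TMPO and HMGN2, whose PonA effects were not called, holds CCAAT as well. Not every window of LMNA and HMGB1 does.

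Among the lamins, LMNB1 signal under PonA was 70.7 units at day 1 and 53.0 at day 2. It was 294 in ethanol at day 1, 577 and 422 in untreated transfected cells at days 1 and 2, and 536 in untransfected cells. The PonA arrays were the lowest of the 6 and did not overlap with the others. LMNB1 was thus 4.17-fold lower with PonA than with ethanol and 8.16-fold lower than untreated at day 1, and 7.96-fold lower than untreated at day 2. Its fitted log2 effect was -2.74 ± 0.31 (SE), and 10 of the 7934 tested probe sets had a lower one. LMNB1 also differed between the controls, since the ethanol array stood at 0.510 times the untreated array of day 1.

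LMNB2, the other B-type lamin gene, gave 676 and 649 units under PonA at days 1 and 2. Its signal was 1451 in ethanol, 1406 and 1278 in untreated transfected cells at days 1 and 2, and 1770 in untransfected cells. Both PonA arrays were lower than every other array, and the 3 transfected arrays without PonA lay within 1.14-fold of each other. The fitted effect was -1.04 ± 0.16 (SE), or 2.05-fold lower, with single differences of 2.15-fold, 2.08-fold and 1.97-fold.

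LMNA encodes lamins A and C by alternative splicing, and which of these the probe sets read was not determined. The first LMNA probe set gave 137 and 134 units under PonA at days 1 and 2, against 156 in ethanol and 196 and 178 in untreated transfected cells. Its PonA arrays were lowest, by a small margin. The second LMNA probe set gave 106 and 91.8 units under PonA, against 100.2 in ethanol and 116 and 123 in untreated transfected cells, so the groups overlapped. The effects were -0.37 ± 0.18 and -0.20 ± 0.19 (SE), and neither was called. Both LMNA probe sets carry suffixes that Affymetrix gives to sets built under relaxed rules. The untransfected array was the highest for both, at 312 for the first and 154 for the second.

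**Figure D2:**
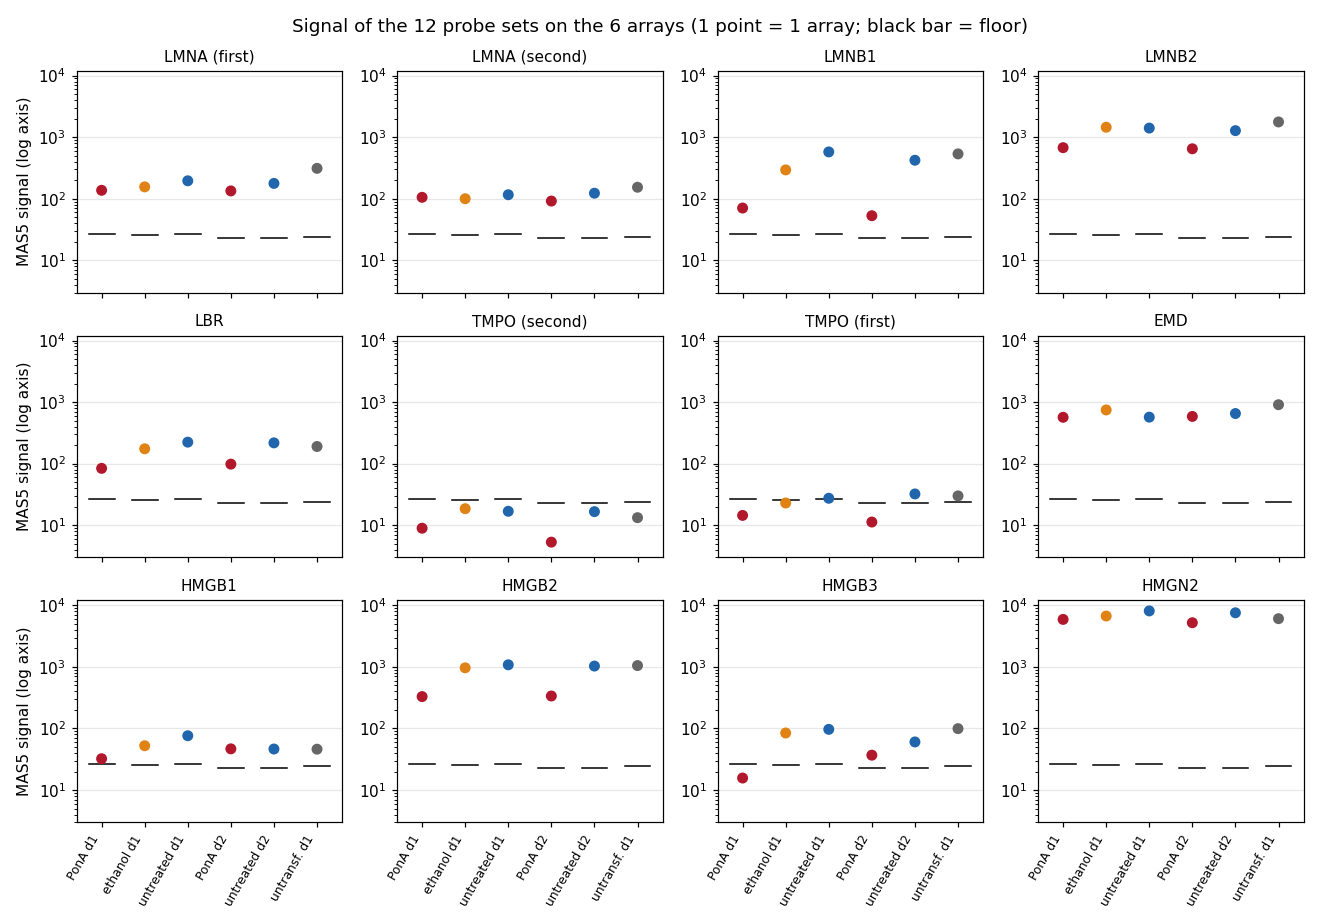
MAS5 signal on a log axis for each of the 12 member probe sets on the 6 arrays, 1 point an array, with the floor of each array as a black bar. PonA points (red) stand apart from the other arrays for LMNB1, LMNB2, LBR and HMGB2, while those of EMD and of the second LMNA probe set lie among the others.

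Of the membrane partners, LBR, which ties B-type lamins and heterochromatin to the inner nuclear membrane, gave 83.8 and 98.1 units under PonA at days 1 and 2. It gave 174 in ethanol, 223 and 217 in untreated transfected cells at days 1 and 2, and 190 in untransfected cells. No array without PonA came down to the PonA arrays. The fitted effect was -1.20 ± 0.19 (SE), or 2.29-fold lower, with single differences of 2.08-fold, 2.66-fold and 2.22-fold. The LBR probe set also carries a suffix, _s_at, and whether its probes match other transcripts was not determined.

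EMD, the emerin gene mutated in a form of muscular dystrophy, gave 566 and 584 units under PonA at days 1 and 2. Its values without PonA were 745 in ethanol, 569 and 651 in untreated transfected cells at days 1 and 2, and 906 in untransfected cells. The PonA and untreated arrays of day 1 were nearly equal, so the groups overlapped. The effect was -0.18 ± 0.19 (SE), which was not called.

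TMPO, which encodes the LAP2 proteins that bind lamins and the chromatin factor BAF, was dim. The first TMPO probe set gave 14.4 and 11.3 units under PonA at days 1 and 2, against 22.9 in ethanol and 27.4 and 32.2 in untreated transfected cells. It gave 29.9 in untransfected cells, and only the 2 untreated transfected arrays and the untransfected one exceeded the floor. Set against the floor, the signal was at least 1.42-fold lower with PonA than untreated at day 2, and at least 1.03-fold lower at day 1. The fitted effect of -0.21 ± 0.19 (SE) is set by the floor and was not called. It was -1.10 with a floor at the 20th percentile and -0.60 with log2(signal + 16), and in neither case was it called. The second TMPO probe set reached at most 18.5 units, in ethanol, stayed under the floor throughout and was not tested.

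Among the HMG box genes, HMGB2, whose protein is most abundant in proliferating tissue, gave 330 and 337 units under PonA at days 1 and 2. Without PonA it gave 967 in ethanol, 1083 and 1033 in untreated transfected cells at days 1 and 2, and 1052 in untransfected cells. The PonA arrays nearly coincided, and the 3 transfected arrays without PonA lay within 1.12-fold of each other. HMGB2 was 2.93-fold lower than with ethanol and 3.28-fold lower than untreated at day 1, and 3.06-fold lower than untreated at day 2. The fitted effect was -1.63 ± 0.17 (SE), and it was the only member called under every alternative run.

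HMGB3, the X-linked member of the family, gave 15.7 and 36.9 units under PonA at days 1 and 2. The arrays without PonA gave 84.5 in ethanol, 96.8 and 60.5 in untreated transfected cells at days 1 and 2, and 99.5 in untransfected cells. Both PonA arrays were lowest, and the one of day 1 was under the floor. At day 1 HMGB3 was therefore at least 3.19-fold lower than with ethanol and at least 3.65-fold lower than untreated, while at day 2 it was 1.64-fold lower than untreated. Its fitted effect was -1.32 ± 0.27 (SE). That effect is set in part by the floor, being -1.75 with a floor at the 20th percentile and -0.71 without the PonA array of day 1, and in neither case was it called.

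HMGB1, the best known HMG box gene, whose protein also acts as an alarm signal outside cells, gave 32.3 and 46.7 units under PonA at days 1 and 2. The ethanol array gave 52.5, untreated transfected cells 76.3 and 46.4 at days 1 and 2, and untransfected cells 46.1. The groups overlapped, and all 6 values were above the floor but dim. HMGB1 was 1.62-fold and 2.36-fold lower at day 1 and 1.01-fold higher at day 2. The effect over both days was -0.55 ± 0.29 (SE), which was not called.

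HMGN2, the nucleosome-binding member, gave 5918 and 5222 units under PonA at days 1 and 2, against 6709 in ethanol and 8125 and 7575 in untreated transfected cells. Untransfected cells gave 6080, between the PonA arrays and the other transfected arrays. The effect was -0.41 ± 0.18 (SE) and was not called. The suffix of this probe set marks probes shared by a sequence family, and HMGN2 and HMGB1 have many processed pseudogenes, so the share of related transcripts in their signal was not determined.

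**Figure D3:**
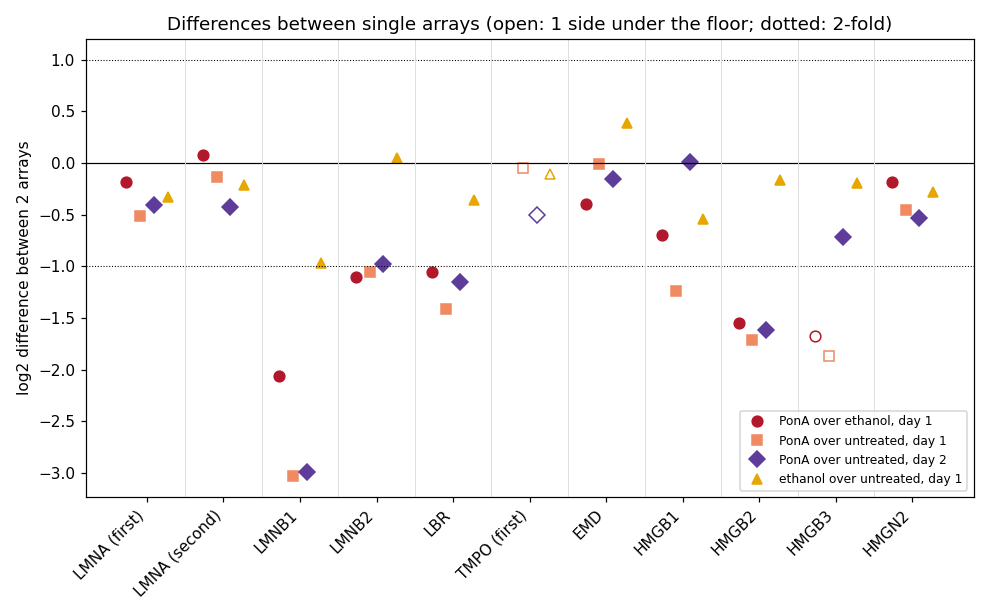
Log2 differences between single arrays for the 11 tested member probe sets, comparing PonA with ethanol (day 1) and with no treatment (days 1 and 2), and ethanol with no treatment (day 1). Open symbols have 1 side under the floor, and TMPO against ethanol is left out because both sides are under it. LMNB1, LBR and HMGB2 lie past the dotted 2-fold line in all 3 PonA comparisons, and HMGB1 lies at 0.01 at day 2.

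By size alone, 5 of 10 member probe sets above the floor were at least 2-fold apart between PonA and ethanol at day 1, where 5.62% of all probe sets were, either way. All 5, LMNB1, LMNB2, LBR, HMGB2 and HMGB3, were lower. Between PonA and untreated cells at day 1 it was 6 of 11, HMGB1 included, against 6.71%, and at day 2 it was 3 of 11, against 8.71%. At least 2-fold lower in all 3 comparisons were LMNB1, LBR and HMGB2, which is 3 of 10, against 1.37% of 7505 probe sets. The first and second comparisons share the PonA array of day 1. In the counts against untreated cells TMPO, under the floor with PonA, stood at its smallest possible difference.

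Whether the PonA effect differed between the days was examined by adding their interaction to the limma fit, which leaves 1 residual degree of freedom. It was called for 0 of 7934 probe sets (0%), members included, while 330 had an unadjusted p below 0.05. HMGB3 was the only member within those 330, with a term of 1.06 ± 0.41 (SE), and HMGB1 had a term of 0.98 ± 0.48 (SE). Day 2 has no ethanol array, so the solvent and the day cannot be told apart in this term. Between the PonA arrays themselves, day 2 over day 1, 0 of 10 members were 2-fold apart with the floor applied, against 2.93% of all probe sets. For HMGB3 the day 2 array was at least 1.39-fold above that of day 1, which was under the floor. Whether HMGB3 reached 2-fold was therefore not determined, and the size of its interaction term depends on the floor.

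Comparisons of arrays without PonA left every tested member within 2-fold. Ethanol against no treatment at day 1 put 0 of 11 members at least 2-fold apart, against 2.18% of all probe sets, and LMNB1 came nearest with 294 in ethanol and 577 untreated. Of the 11, 9 were lower in ethanol, and EMD, at 745 in ethanol and 569 untreated, and LMNB2 were higher. Untreated transfected cells at day 2 against day 1 also had 0 of 11 past 2-fold, against 3.19%, and the largest difference was that of HMGB1, at 46.4 on day 2 and 76.3 on day 1. Between transfected and untransfected untreated cells at day 1, 0 of 11 were past 2-fold, against 5.72%. HMGB1 was 1.65-fold higher in the transfected cells, whereas the first LMNA probe set and EMD stood at 0.628 times the untransfected level. LMNB1, HMGB2 and HMGB3 differed by 1.08-fold or less in that comparison, at 577, 1083 and 96.8 in transfected and 536, 1052 and 99.5 in untransfected cells.

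Related genes were counted in 3 lists, with the brightest probe set standing for a gene, and 2 of 49 tested genes were called, both lower, where 5.07% of all tested probe sets were called either way and 2.37% lower. In the list of lamina and inner nuclear membrane genes, 0 of 14 tested were called, 8 had a negative effect and the median was -0.08. CBX5, which encodes the heterochromatin protein HP1 alpha, an LBR partner, had an effect of -0.93 ± 0.26 (SE, adjusted p = 0.106). ZMPSTE24, the protease that trims prelamin A, had one of 0.56 ± 0.23 (SE, adjusted p = 0.244). CBX5 gave 54.7 and 65.6 with PonA at days 1 and 2, against 86.4 with ethanol and 146 and 113 untreated at days 1 and 2.

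Of 19 nuclear pore genes tested 0 were called, 14 had a negative effect, and the median was -0.19. NUP88 and NUP205, a cytoplasmic-face and a scaffold nucleoporin, had the largest effects in size, -0.67 ± 0.17 and -0.65 ± 0.20 (SE). The adjusted p were 0.0865 for NUP88 and 0.135 for NUP205.

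Of 16 other HMG and histone chaperone genes tested 2 were called lower, 12 had a negative effect, and the median was -0.29. ANP32B, a histone chaperone of the acidic nuclear phosphoprotein family, gave 590 and 454 with PonA at days 1 and 2, against 1339 with ethanol and 1565 and 1028 untreated at days 1 and 2. Its log2 effect was -1.25 ± 0.17 (SE) with an adjusted p of 0.0143. UBTF, an HMG box factor of ribosomal RNA transcription, fell by 0.89 ± 0.17 (SE, adjusted p = 0.0410), while its second probe set had an effect of -0.60 ± 0.17 (adjusted p = 0.110). HMGA1 and HMGN1 had effects of 0.04 ± 0.18 and 0.03 ± 0.17 (SE). Both calls were lost without the PonA array of day 1 or without 1 of the day 2 arrays, PonA or untreated, and each time 0 of the related genes were called.

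**Figure D4:**
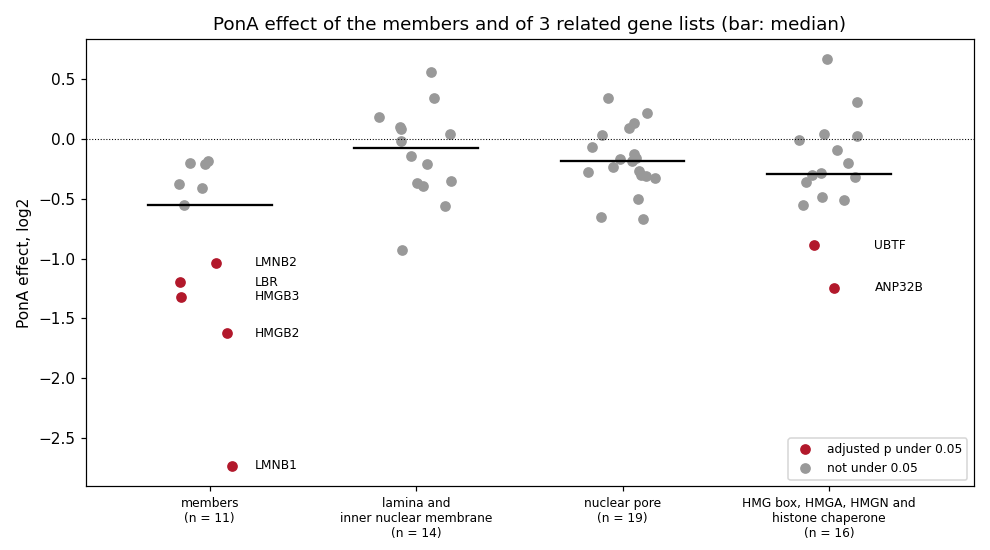
PonA effect on the log2 scale for the 11 tested member probe sets and for the tested genes of 3 related lists, with 1 point a probe set or gene, red where the adjusted p is under 0.05 and a bar at the median. The medians are -0.55 for the members, -0.08 for the lamina and inner nuclear membrane, -0.19 for the nuclear pore, and -0.29 for HMG and histone chaperone genes.

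The genes whose profile over the 6 arrays was most like that of LMNB1, by Pearson r of floored log2 signal among 2242 probe sets of at least 2-fold range, were PPIH, BUB1, KYNU, SLC25A20 and NCAPH, with r between 0.991 and 0.999. BUB1 encodes a spindle checkpoint kinase and NCAPH a condensin subunit, and BUB1 had a PonA effect of -2.26 ± 0.25 (SE). PPIH encodes a spliceosomal prolyl isomerase, KYNU an enzyme of tryptophan breakdown and SLC25A20 a mitochondrial carnitine carrier. The profiles most like that of HMGB2 were those of PCLAF, CCNA2, KIF11, CKB and AURKA, with r between 0.992 and 0.994. PCLAF encodes a PCNA partner, CCNA2 a cyclin, KIF11 a spindle kinesin, AURKA a mitotic kinase and CKB a creatine kinase. The PonA effect was -2.83 ± 0.20 for AURKA and -2.20 ± 0.20 for CCNA2 (SE). The 2 PonA arrays stand apart from the other 4 in all these profiles, so r mostly describes that split.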

How the data were processed

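The authors deposited MAS5 signal intensities on a linear scale, 1 array a sample; the tool is named per the submitters' processing notes, and its version, detection calls and a genome build are not given in the sources used here. Groups came from the labels. Of 12558 probe sets that are no controls, 10943 carry 1 symbol in the platform annotation, of which 10934 matched a RefSeq gene table of GRCh38.p14 by Entrez identifier.

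Signals were floored at the 40th percentile of each array and put on the log2 scale, with no further scaling. The additive fit (lmFit and eBayes, limma 3.58.1, R 4.3.3) kept probe sets that exceeded the floor on 2 or more of the 5 arrays, with p-values adjusted by Benjamini-Hochberg and called under 0.05; eBayes added 4.48 prior degrees of freedom. A run on simulated data gave every probe set the same spread and applied no floor, so it does not test the fit under the conditions of these arrays. SE is the moderated standard error. P-values of the additive fit measure how far these arrays depart from it, the solvent difference included. They do not measure a spread between repeated arrays or cultures. Single arrays were compared over probe sets that exceeded the floor on either side. The members and the related lists were chosen with earlier results of these data known, and so was the PonA-by-day term. Members were named in full. In the related lists the called genes were named, or else the 2 largest effects, and HMGA1 and HMGN1 were named after their values were seen. Likeness took the 5 highest r. Alternatives were quantile normalization, a floor at the 20th percentile, log2(signal + 16), no day term, an eBayes trend, no filter, and each array left out. Precision is limited by there being 6 arrays.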

Additional observations from a re-analysis of the deposited data

Results flagged for a closer look

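HMGB1 was lower with PonA than with either control at day 1, by 0.70 and 1.24 on the log2 scale, and not lower at day 2, where the difference was 0.0090. The day 2 value is opposite in sign but close to 0. The PonA-by-day term of HMGB1 was 0.98 ± 0.48 (SE, adjusted p = 1.00 in limma), so the difference between the days did not pass the test. The untreated array of day 1, at 76.3 signal units, was the highest of the 6, and the other untreated array gave 46.4.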

How the results depend on the processing

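No paired analysis was possible because each group is 1 array, so no replicate number pairs samples; the day term of the fit compares arrays within days, and all 5 members were also called without it. Member effects were compared under every alternative except the run with no filter on dim probe sets. In that run only HMGB2 was called, so LMNB1, LMNB2, LBR and HMGB3 lost their calls there. Of the 108 effects compared, 94 kept their direction and their side of the threshold. Another 12 kept their direction but were no longer called, and 2 changed sign. These were HMGB1 without the PonA array of day 1 (0.0090) and the first TMPO probe set without that of day 2 (0.0066), neither of them called before. With 1 array left out, HMGB1 ranged between -0.97 and 0.0090. TMPO ranged between -0.50 and 0.0066, and it was not tested without the untreated transfected array of either day. The 12 lost calls among the 108 effects concern LMNB2, LBR, HMGB3 and LMNB1. Where lost, the effect of LMNB1 was -2.74, that of LMNB2 -1.08 to -0.98 and that of LBR -1.23 to -1.15, close to those reported, while that of HMGB3 was -1.75 to -0.71. HMGB3 was also lost under quantile normalization (adjusted p = 0.0654), and LMNB1 with the floor at the 20th percentile (adjusted p = 0.0517). The number of members called lower was 1 with that floor and 1 with no filter on dim probe sets, where more probe sets are tested, and 2 to 5 with 1 array left out. Calls over all probe sets, 402 as reported, were 107 with the lower floor, 29 with no filter, 625 with an eBayes trend and 111 to 725 with 1 array left out. Related genes called were 0 with the lower floor, 0 with no filter, 4 with the trend and 0 to 4 with 1 array left out. No member was called higher under any alternative run. Signal close to the floor limits TMPO, HMGB1 and HMGB3.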
